A study of Mus musculus with 2 samples.

Results

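Interferon gamma signaling was followed through 9 genes: the cytokine *Ifng*, its receptor chains *Ifngr1* and *Ifngr2*, the type I interferon receptor chains *Ifnar1* and *Ifnar2*, the transcription factor *Stat2* and the interferon regulatory factors *Irf1*, *Irf7* and *Irf9*. They were taken by symbol from the 33696 genes of the deposited matrices, where each was found once. The data were 2 scRNA-seq libraries of CD45+ cells from the thalamus of C57B6/J mice with cortical ablation injury (CAI). One group received control Ab, which was normal rat IgG, and the other anti-CD9 Ab (clone KMC8). Injections went into the thalamus through implanted cannulas, at 1.0 µg/µl, beginning 7 days and ending 19 days after CAI, and the tissue was taken at 21 days. All mice were injured and cannulated and were 12 weeks old, and no uninjured or uninjected group was analysed here. For thalamic libraries the study describes a pool of cells from 4 mice, a number it does not repeat for the antibody groups.

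Each antibody had 1 library, so no comparison could be tested against replicates. Values are given as UMIs (unique molecules counted per gene) and as CPM (UMIs of a gene per 1000000 UMIs of the same cells), with exact 95% intervals that cover only the error of counting molecules. Pairs of values give control Ab first and anti-CD9 Ab second. Ratios are log2 of CPM with anti-CD9 Ab over CPM with control Ab. An effect of the antibody cannot be told apart from a difference between mouse pools or between library preparations. The libraries held 38042608 and 40825201 UMIs over 12245 and 15173 barcodes, and shared 54 barcodes. Under the quality limits of the study, 7467 and 9162 cells remained, at medians of 1880 and 1419 UMIs. *Ptprc*, which encodes CD45, had a UMI in 61.7% and 65.1% of the kept cells, and astrocyte-like and oligodendrocyte-like cells were present in both libraries despite the sort for CD45. Clustering without the interferon genes gave 27 clusters, of which 19 met the rules for a cell type name. Some of the others carried enough markers but failed on predicted doublets or on leading genes of another type. The makeup of the clusters differed widely between the libraries. T cell-like cells numbered 2792 and 994, microglia-like cells 1890 and 781, macrophage-like cells 204 and 1225, dendritic cell-like cells 113 and 343, and neutrophil-like cells 65 and 2574.

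Interferon gamma is released mainly by activated T and natural killer (NK) cells. It binds a receptor built from Ifngr1, the main ligand-binding chain, and Ifngr2, the chain needed for signaling, and Janus kinases then activate STAT proteins that bind gamma-activated sites (GAS) in promoters such as that of *Irf1*. Type I interferons bind Ifnar1 and Ifnar2 and act largely through a complex of Stat2, Irf9 and a further STAT protein that binds interferon-stimulated response elements (ISRE). Microglia and infiltrating myeloid cells of the injured brain carry both kinds of receptor.

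The promoters of *Irf1* and *Stat2* are shown because these were the members with the largest differences between the libraries in microglia-like cells, and each held a match to one of the motif kinds of the pathway. The 250 bases before the start of each gene were taken from RefSeq (GRCm38.p6) and searched on both strands for a GAS-type motif, TTCNNNGAA, and for an ISRE-type motif, which is GAAA, any 2 bases and GAAA. The *Irf1* window lies at chr11:53769764-53770013 on the plus strand and the *Stat2* window at chr10:128270248-128270497 on the plus strand. Capitals mark the match.
Irf1 promoter: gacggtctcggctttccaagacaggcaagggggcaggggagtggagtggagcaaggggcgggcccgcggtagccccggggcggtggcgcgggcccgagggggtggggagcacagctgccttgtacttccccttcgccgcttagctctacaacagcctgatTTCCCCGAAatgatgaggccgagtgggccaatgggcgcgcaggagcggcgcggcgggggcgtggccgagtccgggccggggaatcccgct
Stat2 promoter: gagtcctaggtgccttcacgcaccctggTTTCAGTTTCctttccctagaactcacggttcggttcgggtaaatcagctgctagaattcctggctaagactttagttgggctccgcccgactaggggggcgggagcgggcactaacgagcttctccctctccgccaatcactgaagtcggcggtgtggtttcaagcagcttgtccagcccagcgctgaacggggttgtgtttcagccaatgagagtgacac
The GAS-type match of *Irf1* started 90 bases before the start of the gene, and the ISRE-type match of *Stat2*, which reads on the opposite strand, 222 bases before it. RefSeq gives a further start for *Irf1* downstream of this one, whose window held neither motif. Among the other members, *Ifng* and *Ifnar2* had a GAS-type match (TTCAGAGAA, 249 bases before the start, and TTCCTGGAA, 214 bases before it). No motif of either kind was found in the windows of *Ifngr1*, *Ifngr2*, *Ifnar1*, *Irf7* and *Irf9*, the last of which also has 2 starts. Over all 32851 RefSeq promoters of this length, 7.02% held the GAS-type and 2.98% the ISRE-type motif. These matches describe the letters of the window and not binding.

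*Ifng* was found mostly in lymphoid cells in both libraries. Of its UMIs in kept cells, 479 of 598 (80.1%, 76.7 to 83.2%) lay in T cell-like and T/NK cell-like cells when control Ab was given, and 505 of 597 (84.6%, 81.4 to 87.4%) when anti-CD9 Ab was given. These intervals take UMIs as independent, while 10 cells held 45.2% of those with anti-CD9 Ab. Without the 10 cells of each library with most *Ifng* the shares were 80.5% and 74.9%. They were 80.5% and 76.9% with at most 5 UMIs counted per cell, and 96.2% and 91.0% without predicted doublets. In the other settings tried the share was higher with anti-CD9 Ab. In the main setting, a further 11.4% and 9.38% lay in clusters that took no name. In T cell-like cells the level was 84.5 CPM (76.5 to 93.1) with control Ab and 160 CPM (146 to 176) with anti-CD9 Ab, from 409 and 448 UMIs, a log2 ratio of 0.93 (0.73 to 1.12). In T/NK cell-like cells, a cluster led by *Gzma*, *Nkg7* and *Cd8b1*, it was 80.1 CPM (62.4 to 101) and 150 CPM (114 to 195), from 70 and 57 UMIs (0.91, 0.38 to 1.43), a ratio that was 0.37 (−0.25 to 0.97) at 20 principal components and 0.19 (−0.49 to 0.84) without cells with *S100a8* or *S100a9*. The T cell-like and T/NK cell-like levels lay within each other's intervals in both libraries. Over all kept cells the levels were close, at 24.0 and 26.3 CPM, while T cell-like and T/NK cell-like cells together numbered 3199 and 1159.

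Outside the lymphoid cells *Ifng* was rare. Microglia-like cells had 22 *Ifng* UMIs with control Ab (2.07 CPM) and 0 of 2824884 UMIs with anti-CD9 Ab, so that, with the 0 set to the floor of 3 counts, the level was at least 1.95-fold lower. The T cell markers counted in microglia-like cells moved the same way, from a sum of 199 CPM over 9 genes to 19.1 CPM, and their part in these *Ifng* UMIs was not tested. Macrophage-like cells had 3 and 15 *Ifng* UMIs (2.35 and 2.23 CPM), dendritic cell-like cells 5 and 9 (8.14 and 6.27 CPM) and neutrophil-like cells 0 and 1. The plot of *Ifng* by class and by gate shows these values.

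**Figure D1:**
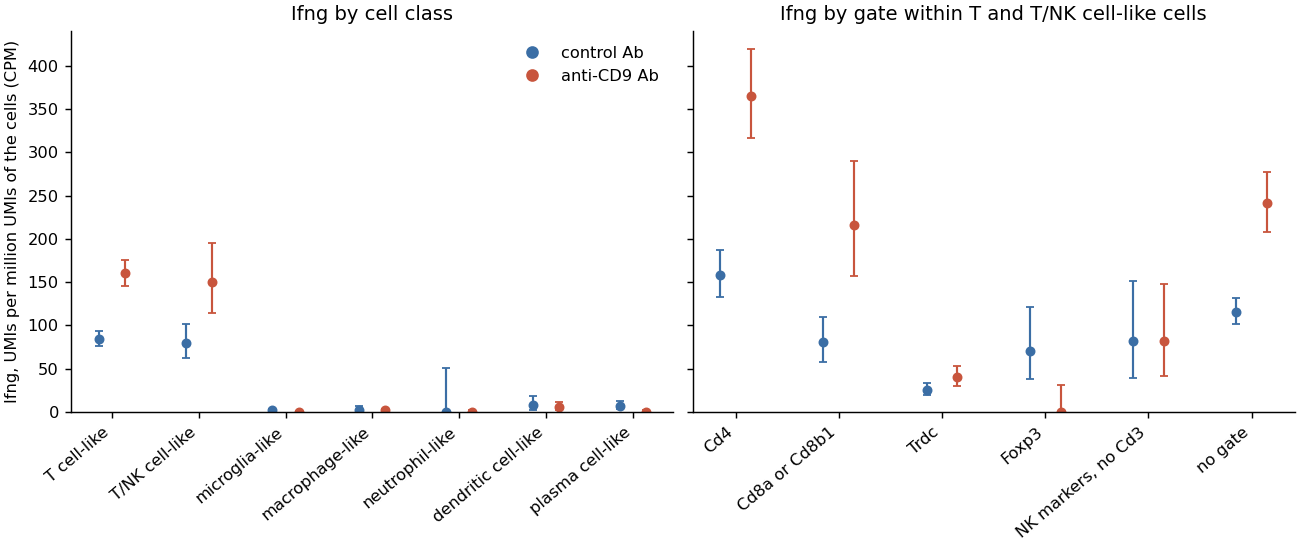
*Ifng* level in CPM for cell classes (left) and for gates within T cell-like and T/NK cell-like cells (right), with control Ab and anti-CD9 Ab side by side (1 library each) and bars for the 95% counting interval. T cell-like cells stand at 84.5 and 160 CPM and microglia-like cells at 2.07 CPM and 0, so that the lymphoid classes are far above the myeloid ones in both libraries.

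Much of the *Ifng* of T cell-like cells with anti-CD9 Ab lay in a few cells. Over all kept cells, 393 control Ab cells and 225 anti-CD9 Ab cells had an *Ifng* UMI, with a median of 1 UMI per such cell in both. The 10 cells with most *Ifng* held 75 of 598 UMIs (12.5%) in the control Ab library and 270 of 597 (45.2%) in the other, and the highest single cell held 12 and 110 UMIs. Among T cell-like and T/NK cell-like cells, 9 of 3199 control Ab cells and 15 of 1159 anti-CD9 Ab cells had 5 or more *Ifng* UMIs. Those 9 and 15 cells held 13.2% and 57.6% of the lymphoid *Ifng* UMIs. Without the highest T cell-like cell of each library the levels were 82.0 and 121 CPM (0.57). The 10 kept cells with most *Ifng* in each library were not all T cell-like. Leaving them out left 2784 and 986 of the 2792 and 994 T cell-like cells, at 72.7 and 76.2 CPM (0.07). Counting no more than 5 *Ifng* UMIs per cell gave 80.8 and 89.2 CPM (0.14), and leaving out predicted doublets gave 85.7 and 128 CPM (0.58). The settings that drop or cap cells chosen by their *Ifng* lower the anti-CD9 Ab level more by construction. The same number of cells was dropped from each library, though the classes differ in size. With up to 5% mitochondrial counts kept, the levels were 80.4 and 180 CPM (1.16, 1.02 to 1.30), from 698 and 1077 UMIs.

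The share of T cell-like cells with *Ifng* differed less than the CPM. After each cell was thinned to 1000 UMIs, *Ifng* was present in 5.83% (4.94 to 6.83%) of 2452 cells with control Ab and in 8.03% (6.36 to 9.98%) of 921 cells with anti-CD9 Ab. Without thinning the shares were 9.28% and 14.4%, and the median cell had 1552 and 2306 UMIs. In macrophage-like cells, which are not known as a main source, the thinned share was 0% of 202 cells and 0.164% of 1223 cells, at medians of 6005 and 5147 UMIs. The lymphoid share was thus far above that background in both libraries, and the intervals of the libraries overlapped.

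**Figure D2:**
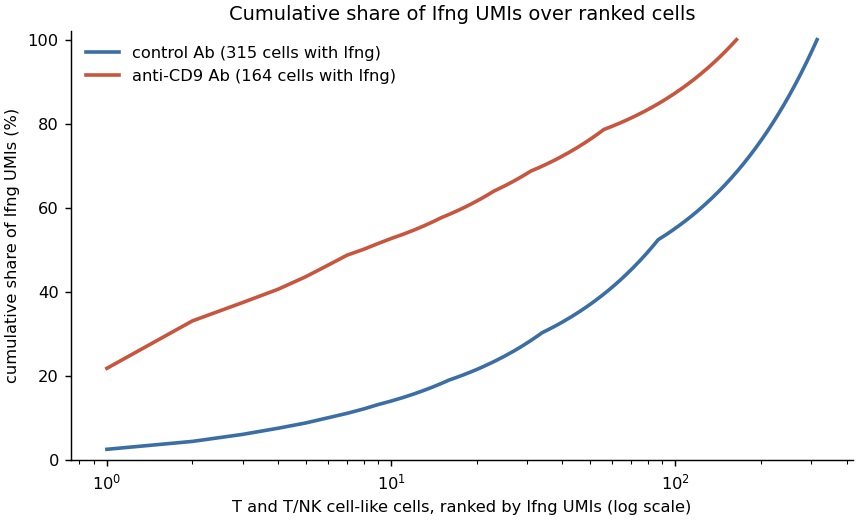
Cumulative share of *Ifng* UMIs in percent (vertical axis) against T cell-like and T/NK cell-like cells ranked by their *Ifng* UMIs, highest first, on a log axis (1 line per library, cells with *Ifng* only). The anti-CD9 Ab line starts far higher, since the 15 cells with 5 or more UMIs hold 57.6% of the total there and the 9 such control Ab cells 13.2%.

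Cells of the T cell-like and T/NK cell-like classes were also gated by single transcripts. *Ifng* was higher with anti-CD9 Ab in cells with *Cd4* or *Cd8* transcripts. Cells with a *Cd4* UMI and none of *Foxp3*, *Cd8a*, *Cd8b1* and *Trdc* stood at 158 CPM with control Ab (414 cells) and 365 CPM with anti-CD9 Ab (194 cells), a log2 ratio of 1.205 (0.88 to 1.53). Their thinned share with *Ifng* was 10.6% (7.69 to 14.2%) and 18.4% (13.2 to 24.7%). Cells with *Cd8a* or *Cd8b1*, of which 217 and 48 lay in the T/NK cell-like cluster, stood at 81.0 CPM (236 cells) and 216 CPM (64 cells), from 41 and 44 UMIs, with thinned shares of 6.25% and 6.78%. With anti-CD9 Ab, the highest single cells of these gates held 57 of 202 UMIs (*Cd4*) and 22 of 44 (*Cd8*). Cells with *Trdc*, which encodes the constant region of the delta chain of the γδ T cell receptor, were at 25.7 CPM (1308 cells) and 40.4 CPM (414 cells), with thinned shares of 2.15% and 2.56%. Cells with *Foxp3*, the factor that defines regulatory T cells, had 13 *Ifng* UMIs among 81 cells with control Ab and 0 among 43 cells with anti-CD9 Ab (at least 2.81-fold lower in CPM, with the same floor). Cells with NK markers and no *Cd3* transcripts, a gate added after the data were seen, had 82.5 and 82.4 CPM (64 and 59 cells), with an interval of the log2 ratio of −1.38 to 1.39. Cells in none of these gates held 227 *Ifng* UMIs with control Ab (1096 cells) and 193 with anti-CD9 Ab (385 cells). These were 38.0% and 32.3% of the *Ifng* UMIs of kept cells, with control Ab more than in any gate. The anti-CD9 Ab cell with 110 *Ifng* UMIs was among the ungated cells.

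The T cell-like clusters differed widely in *Ifng*. The largest, led by *Themis*, *Cd6* and *Ms4a4b*, had 122 and 149 CPM of *Ifng* (1172 and 444 cells), a log2 ratio of 0.29 (−0.02 to 0.60). The cluster led by *Il17a*, *Trdc* and *Trgc1* was low in both, at 27.3 and 28.9 CPM (663 and 148 cells). A cluster led by *Scart1*, *Clnk* and *Adam12* went from 23.6 to 224 CPM, and 110 of its 146 UMIs with anti-CD9 Ab lay in 1 cell. Its thinned share of cells with *Ifng* was 2.12% and 3.55%. The cluster led by *Tnfrsf4*, *Ctla4*, *Izumo1r* and *Foxp3* went from 177 to 447 CPM, from 87 and 108 UMIs in 246 and 98 cells. Its thinned shares were 9.25% and 8.42%, so that the share of cells with *Ifng* was not higher. The *Foxp3* gate held 0 *Ifng* UMIs with anti-CD9 Ab, so that the 108 UMIs lay in cells outside that gate. The cycling cluster led by *Ube2c*, *Stmn1* and *Birc5* went the other way, from 99.4 to 78.4 CPM (38 and 89 cells, −0.34, −1.14 to 0.51).

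Genes of the *Ifng*-producing programme, a list of receptors, transcription factors and cytotoxic proteins of cytotoxic and helper lymphocytes, were read in the same cells. In T cell-like cells 10 of 14 genes were higher with anti-CD9 Ab and 3 of them at least 2-fold, with a median log2 ratio of 0.38. Over all genes 39.3% were higher and 3.6% at least 2-fold, with a median of −0.09. *Gzmb*, the cytotoxic protease granzyme B, went from 60.9 to 557 CPM (3.19) and *Prf1*, which encodes the pore-forming protein perforin, from 3.92 to 25.1 CPM (2.68). *Il18r1*, a chain of the receptor for the *Ifng* inducer IL-18, went the other way, from 619 to 433 CPM (−0.52), as did the chemokine receptor *Cxcr3*, from 157 to 67.3 CPM (−1.22). The T cell-like class was made up differently in the libraries. Its cycling cluster contributed 191116 UMIs to a control Ab total of 4842053, but 612599 to an anti-CD9 Ab total of 2791851. Its cluster led by *Il17a* went from 663 cells out of 2792 to 148 out of 994. Whether the list genes differed within single clusters of this class was not tested. In T/NK cell-like cells 12 of 14 genes were higher (median 0.42), against 48.5% of all genes (median −0.02). The summed level of the list also went from 729 to 4060 CPM in macrophage-like and from 269 to 1149 CPM in microglia-like cells, against 2296 to 2986 CPM in T cell-like cells. The chemokine *Ccl5* made up most of that sum in macrophage-like cells (506 and 3822 CPM) and was singled out after its values were seen. In microglia-like cells 2 of the 9 list genes with enough UMIs were higher and 7 lower, with a median of −0.67. Of these, 4 were at least 2-fold lower and 1 at least 2-fold higher, so that the larger sum does not describe most genes there. Over all 11070 genes of microglia-like cells, 479 were at least 2-fold lower and 329 at least 2-fold higher. The summed level of 9 T cell markers in microglia-like cells went from 199 to 19.1 CPM. The part of T cell RNA in the values of the list there was not tested. In macrophage-like cells 6 of 10 were higher (median 0.42). Over all genes 52.5% were higher in microglia-like and 49.0% in macrophage-like cells.

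Cytokines that induce *Ifng* were read in the myeloid classes. In macrophage-like cells all 5 genes of this list with enough UMIs were higher with anti-CD9 Ab, 4 of them at least 2-fold, with a median of 1.26 (all genes −0.01). Over all genes of these cells 49.0% were higher and 8.06% at least 2-fold. The whole list had 90 UMIs in the 204 control Ab cells and 1263 in the 1225 anti-CD9 Ab cells, so that the control Ab values rest on few counts. *Il12a*, which encodes the p35 chain of IL-12, had 1 and 180 UMIs (0.78 and 26.8 CPM), a log2 ratio of 5.10 (2.599 to 10.4). *Il27* went from 3.91 to 23.9 CPM (2.61), *Il18* from 25.8 to 56.9 CPM (1.14) and *Il15* from 28.2 to 46.2 CPM (0.71). In microglia-like cells 3 of 4 genes were higher, where 52.5% of all genes were. *Il27* went from 10.9 to 27.6 CPM (1.34), while *Il18* (88.1 and 103 CPM), *Il15* (65.8 and 72.6 CPM) and *Ebi3* (27.2 and 21.6 CPM) were within 2-fold. Neutrophil-like cells had the largest median, 1.93, with 6 of 6 genes higher and 4 at least 2-fold, but the list had 21 UMIs there with control Ab. Over all genes of these cells 44.9% were higher and 19.4% at least 2-fold. In dendritic cell-like cells 3 of 4 were higher (median 0.48), where 47.5% of all genes were. Of 20 interferon ligand genes other than *Ifng*, 3 had a UMI in kept cells: *Ifnb1* (25 and 4), *Ifnk* (0 and 4) and *Ifnz* (1 and 1).

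*Ifngr1*, the ligand-binding chain, was within 2-fold between the libraries in the microglia-like and macrophage-like cells. It was at 415 CPM (403 to 428) and 396 CPM (373 to 420) in microglia-like cells, a log2 ratio of −0.07 (−0.17 to 0.02), and at 215 and 222 CPM in macrophage-like cells (0.05). The microglia-like ratio was −0.36 (−0.55 to −0.17) without integration and −0.14 (−0.21 to −0.07) with up to 5% mitochondrial counts kept, and the macrophage-like ratio 0.27 (0.02 to 0.53) with cells assigned one by one by their marker UMIs. T cell-like cells had the most with control Ab, 614 CPM (592 to 636), and 624 CPM (595 to 654) with anti-CD9 Ab. In T/NK cell-like cells *Ifngr1* went from 489 CPM (443 to 537) to 858 CPM (767 to 956), a log2 ratio of 0.81 (0.60 to 1.02), and the thinned share of these cells with a UMI from 34.2% to 54.2%. The makeup of that class differed as well, with 217 of 407 and 48 of 165 cells in the *Cd8* gate. Its part in the ratio was not tested. Dendritic cell-like cells had 407 and 340 CPM (−0.26), from a class whose makeup differed between the libraries. Its cluster led by *Wdfy4*, *Flt3* and *Xcr1* (95 and 182 cells) was at 439 and 429 CPM (−0.03), and its cluster led by *Ccr7* and *Fscn1* (18 and 161 cells) at 139 and 174 CPM (0.32). Neutrophil-like cells had 220 and 137 CPM (−0.69, −1.40 to 0.13). Among the gates, cells with *Trdc* were the only ones with a lower level with anti-CD9 Ab, at 650 and 450 CPM (−0.53, −0.67 to −0.39). The level was higher in the *Cd4*, *Cd8*, *Foxp3* and NK gates and in the ungated cells, for example 541 and 713 CPM in cells with *Cd4* (0.40).

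*Ifngr2* was low in T cell-like cells and higher in all myeloid classes. In T cell-like cells it had 114 and 39 UMIs, 23.5 CPM (19.4 to 28.3) and 14.0 CPM (9.93 to 19.1), a log2 ratio of −0.75 (−1.32 to −0.22). That ratio was −0.076 (−0.40 to 0.24) with cells assigned one by one and −0.29 (−0.76 to 0.16) without integration. Microglia-like cells had 214 and 248 CPM (0.21, 0.08 to 0.33, and −0.04 when clustered without integration), macrophage-like cells 174 and 188 CPM, neutrophil-like cells 152 and 148 CPM and dendritic cell-like cells 143 and 164 CPM. With control Ab the intervals of the macrophage-like, neutrophil-like and dendritic cell-like levels overlapped.

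The type I receptor chains were higher with anti-CD9 Ab in part of the myeloid cells. *Ifnar1* went from 52.7 to 83.9 CPM in microglia-like cells (0.67, 0.45 to 0.89) and from 67.3 to 107 CPM in macrophage-like cells (0.67, 0.35 to 1.01). Without integration the microglia-like ratio was 0.41 (−0.03 to 0.82). T cell-like cells had 43.4 and 37.6 CPM of *Ifnar1*, and dendritic cell-like cells 83.0 and 92.6 CPM. *Ifnar2* was higher in macrophage-like cells, 276 CPM (248 to 307) against 435 CPM (420 to 451), a log2 ratio of 0.66 (0.50 to 0.82), and in neutrophil-like cells, 179 against 331 CPM (0.88, 0.10 to 1.80). In microglia-like cells *Ifnar2* was at 414 and 395 CPM (−0.07), and the ratio was −0.23 (−0.41 to −0.05) without integration. T cell-like cells had 149 and 122 CPM of it (−0.29, −0.48 to −0.10), with a ratio of −0.14 (−0.29 to 0.01) when cells were assigned one by one.

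**Figure D3:**
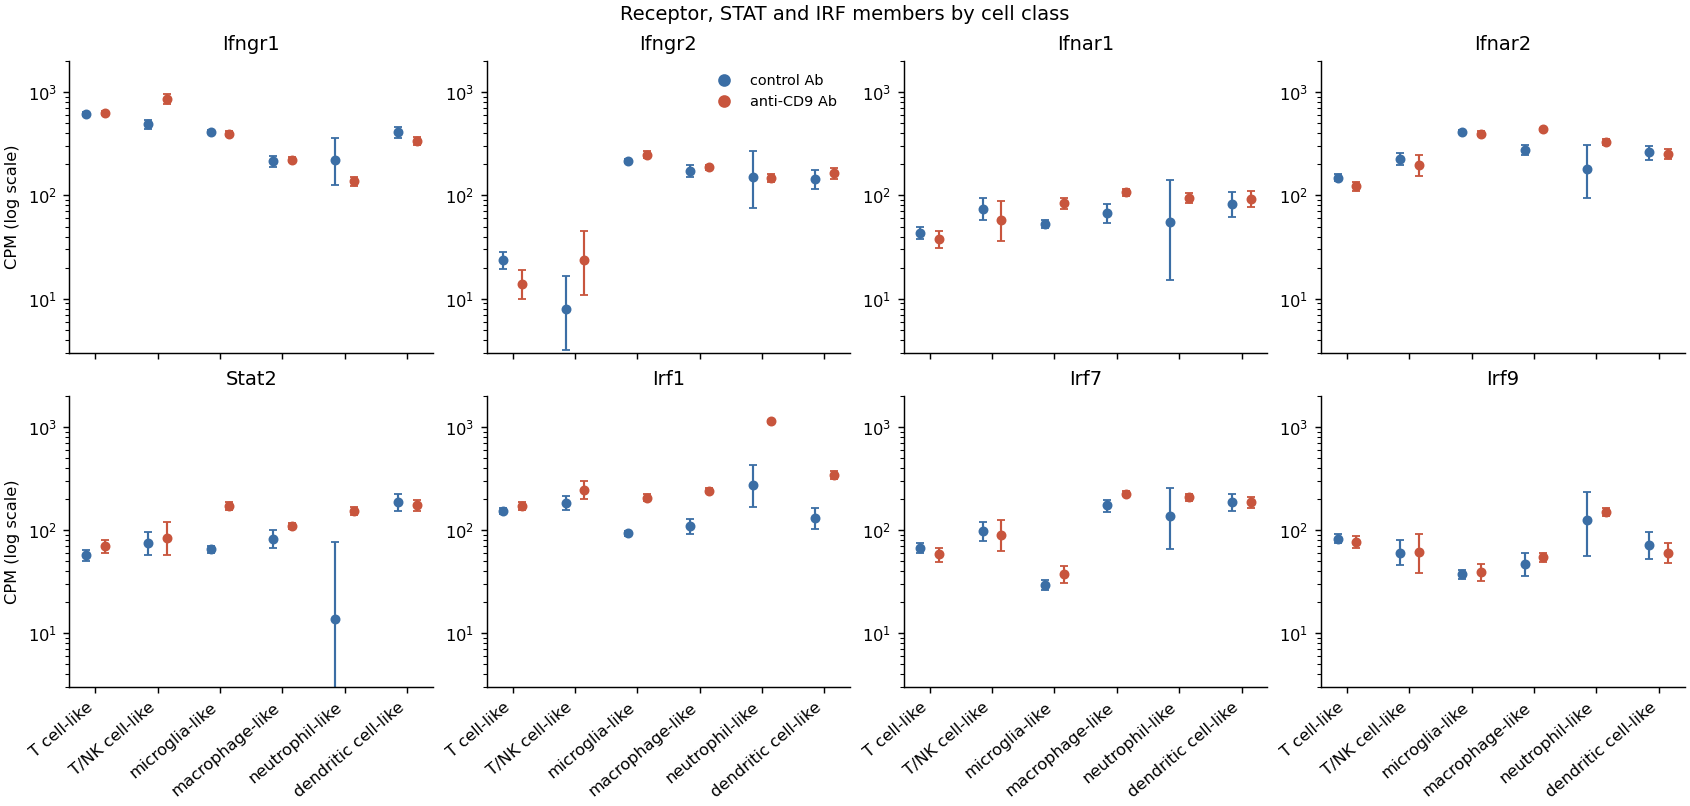
Level of each of the 8 members other than *Ifng* in CPM on a log axis, 1 panel per gene, for 6 cell classes with control Ab (blue) and anti-CD9 Ab (red), with 95% counting intervals (a bar that meets the lower edge runs on below it). In microglia-like cells *Irf1* goes from 92.7 to 206 CPM and *Stat2* from 64.9 to 171 CPM, while *Ifngr1* stays at 415 and 396 CPM.

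*Stat2* and *Irf1* were the members at least 2-fold higher with anti-CD9 Ab in microglia-like cells. Of the 8 members with at least 50 UMIs there, 6 were higher and 2 were past 2-fold, where 2.97% of all 11070 genes were at least 2-fold higher. *Stat2*, whose promoter is printed above, had 690 UMIs (64.9 CPM, 60.1 to 69.9) with control Ab and 483 (171 CPM, 156 to 187) with anti-CD9 Ab. The log2 ratio was 1.40 (1.23 to 1.57), and 0.70 when the libraries were clustered without integration. After thinning, 5.99% (4.96 to 7.17%) and 13.3% (11.004 to 15.9%) of the microglia-like cells had a *Stat2* UMI. The ratio was smaller in macrophage-like cells (82.2 and 110 CPM, 0.42, 0.12 to 0.73) and T cell-like cells (57.2 and 69.5 CPM, 0.28, 0.01 to 0.55). When cells with up to 5% mitochondrial counts were kept, the T cell-like ratio was 0.041 (−0.16 to 0.24). Its interval also included 0 in 4 other settings, and that of the macrophage-like ratio without cells with *S100a8* or *S100a9* (0.31, −0.01 to 0.65). Dendritic cell-like cells had 186 and 173 CPM of *Stat2* (−0.10, and 198 and 179 CPM within the *Xcr1* cluster), the highest level with control Ab among these classes. Their *Ccr7* cluster went the other way, with 5 of 64625 and 81 of 499281 UMIs, so that its control Ab level rests on 5 counts. In neutrophil-like cells *Stat2* had 1 and 492 UMIs (13.8 CPM, 0.349 to 76.8, and 154 CPM), so that the ratio there is loosely bounded, with an interval of 1.00 to 8.79 around 3.49.

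*Irf9*, which binds DNA in complex with Stat2, was within 2-fold in these classes. It was at 37.2 and 38.9 CPM in microglia-like cells (0.07, −0.25 to 0.38, and −0.60, −1.35 to 0.06, without integration), 47.0 and 54.7 CPM in macrophage-like cells (0.22, −0.18 to 0.64) and 82.6 and 77.4 CPM in T cell-like cells (−0.09). Over all kept cells it was at 46.6 and 69.6 CPM (0.58), a value that also counts the larger number of neutrophil-like cells, which stood at 124 and 151 CPM.

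*Irf1*, an early target of interferon gamma that drives antigen presentation genes, was higher with anti-CD9 Ab in each myeloid class. In microglia-like cells it had 986 and 582 UMIs, 92.7 CPM (87.0 to 98.7) and 206 CPM (190 to 223), a log2 ratio of 1.15 (1.00 to 1.30). In macrophage-like cells it had 139 and 1619 UMIs, 109 and 241 CPM (1.15, 0.89 to 1.41), and in dendritic cell-like cells 80 and 490 UMIs, 130 and 341 CPM (1.39, 1.05 to 1.75). Neutrophil-like cells had 276 CPM (168 to 426) from 20 UMIs in 65 cells with control Ab and 1132 CPM from 3606 UMIs with anti-CD9 Ab (2.04, 1.41 to 2.75), which was the highest level of any class there. Of the 22 control Ab cells deep enough to thin, 0% (0 to 15.4%) had an *Irf1* UMI, against 53.9% of 1749 cells with anti-CD9 Ab. The thinned share of cells with an *Irf1* UMI went from 7.61% to 15.7% in microglia-like cells and from 9.90% to 18.97% in macrophage-like cells. The dendritic cell-like cluster led by *Wdfy4*, *Flt3* and *Xcr1* went from 113 to 266 CPM (1.24, 0.83 to 1.66) and the one led by *Ccr7* and *Fscn1* from 279 to 483 CPM (0.79, 0.10 to 1.57), so that *Irf1* was higher with anti-CD9 Ab within both clusters of that class.

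In lymphoid cells *Irf1* was closer between the libraries. T cell-like cells had 154 and 171 CPM (0.15, −0.01 to 0.32), a ratio that was 0.34 (0.20 to 0.48) with cells assigned one by one and −0.067 without predicted doublets. T/NK cell-like cells had 184 and 245 CPM (0.41, 0.03 to 0.79, and 0.28, −0.14 to 0.69, without predicted doublets). Plasma cell-like cells had 44.4 and 45.3 CPM (0.03). Astrocyte-like cells, which the sort should have removed, had 39.2 CPM (26.4 to 55.9) and 169 CPM (96.3 to 274) from 30 and 16 UMIs. *Irf1* was the 1 member past 2-fold in macrophage-like cells (of 8, where 8.06% of 9061 genes were) and in dendritic cell-like cells (of 8, where 7.45% of 5867 genes were). In neutrophil-like cells *Irf1* and *Stat2* were past it, of 8 members, where 19.4% of 5253 genes were. None of the 9 members was past 2-fold in T cell-like cells, where 3.6% of 9753 genes were, and *Ifng* came closest.

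**Figure D4:**
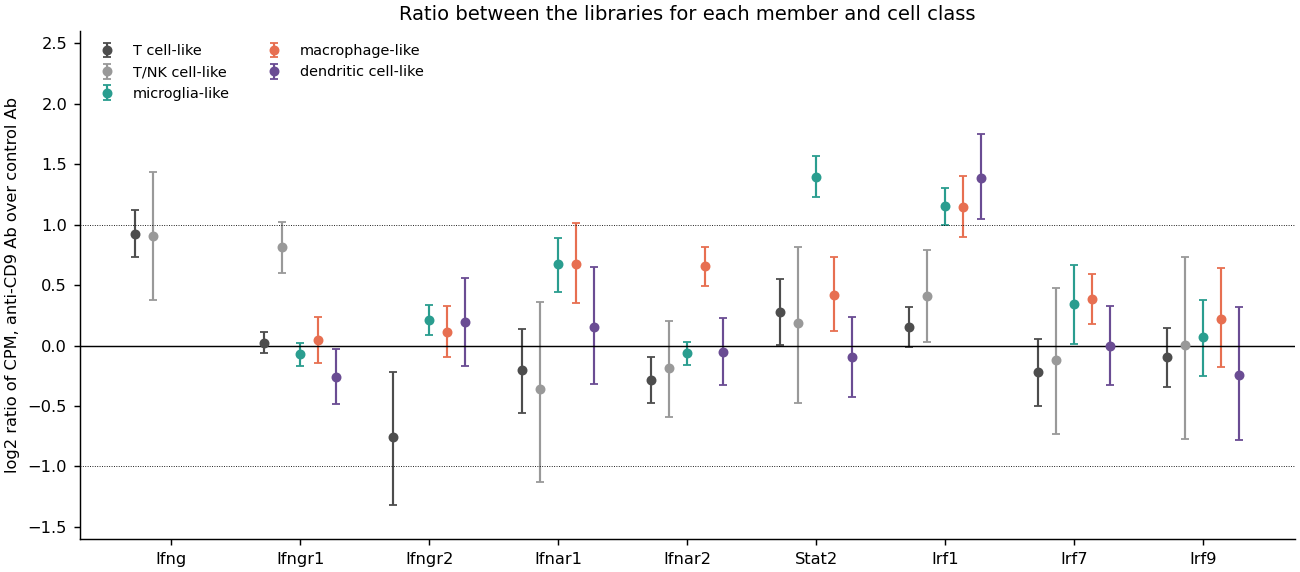
Log2 ratio of CPM, anti-CD9 Ab over control Ab, for each member with at least 50 UMIs in 5 cell classes (neutrophil-like cells, with 65 control Ab cells, are not drawn), with 95% counting intervals and dotted lines at 2-fold. *Irf1* lies at 1.15 in microglia-like, 1.15 in macrophage-like and 1.39 in dendritic cell-like cells, and *Stat2* at 1.40 in microglia-like cells.

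The source of *Irf1* UMIs moved with the makeup of the libraries. With control Ab, 38.0% of the *Irf1* UMIs of kept cells lay in microglia-like cells, 34.9% in T cell-like and T/NK cell-like cells and 0.77% in neutrophil-like cells. With anti-CD9 Ab, 45.8% lay in neutrophil-like cells, 20.6% in macrophage-like cells, 7.40% in microglia-like cells and 7.26% in T cell-like and T/NK cell-like cells. Over all kept cells *Irf1* went from 104 to 347 CPM, which is a larger ratio than within microglia-like or macrophage-like cells.

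*Irf7*, which amplifies type I interferon, differed more between the whole libraries than within classes. Over all kept cells it went from 50.5 to 136 CPM (1.43, 1.33 to 1.52), while no class with at least 50 *Irf7* UMIs passed 2-fold. In macrophage-like cells it was at 173 CPM (151 to 197) and 226 CPM (214 to 237), a log2 ratio of 0.38 (0.18 to 0.59). In microglia-like cells it was at 29.6 CPM (26.4 to 33.1) and 37.5 CPM (30.7 to 45.4), 0.34 (0.01 to 0.66). Without integration the microglia-like ratio was −0.56 from 386 and 17 UMIs, with an interval of −1.36 to 0.13 that included 0. The macrophage-like ratio was 0.15 (−0.08 to 0.39) without predicted doublets, 0.23 (−0.03 to 0.51) with cells assigned one by one, 0.22 (−0.01 to 0.46) without cells with *S100a8* or *S100a9* and 0.17 (−0.02 to 0.35) with up to 5% mitochondrial counts kept. Dendritic cell-like cells had 186 and 185 CPM (0.00, −0.33 to 0.33), with 202 and 183 CPM within the *Xcr1* cluster and 46.4 and 190 CPM, from 3 and 95 UMIs, within the *Ccr7* cluster. Neutrophil-like cells had 138 and 208 CPM from 10 and 663 UMIs (0.59, −0.29 to 1.66), and T cell-like cells 67.5 and 58.0 CPM (−0.22). Macrophage-like cells held 17.6% and 49.3% of the *Irf7* UMIs of the respective libraries, and microglia-like cells 25.0% and 3.44%.

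The microglia-like cells formed 2 clusters that differed in these members. In the cluster led by the homeostatic genes *Siglech* and *P2ry12* (989 and 448 cells), *Stat2* went from 56.6 to 207 CPM (1.87, 1.62 to 2.13) and *Irf7* from 11.4 to 32.3 CPM (1.503, 0.89 to 2.12, from 45 and 48 UMIs). In the cluster led by *Lpl*, *Spp1* and *Cst7* (901 and 333 cells), *Stat2* went from 69.8 to 131 CPM (0.91, 0.65 to 1.16) and *Irf7* was at 40.4 and 43.3 CPM (0.10). *Irf1* did not differ in this way, at 89.5 and 201 CPM (1.17) in the first and 94.6 and 211 CPM (1.16) in the second.

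These values rest on the integration of the libraries. Clustered without it, 554 of the 781 microglia-like cells with anti-CD9 Ab (70.9%) and 86 of the 1890 with control Ab (4.55%) fell into a cluster led by *Ccl12*, *Cxcl13* and *Crybb1*, which held 4 of 9 microglia markers and took no name. Within that cluster *Irf1* was at 144 and 219 CPM, *Stat2* at 95.0 and 201 CPM and *Irf7* at 45.6 and 41.9 CPM. In the *Siglech* cluster of that clustering (699 and 76 cells), *Irf1* was at 83.8 and 116 CPM, *Stat2* at 41.4 and 58.1 CPM and *Irf7* at 3.81 and 15.9 CPM. In the cluster led by *Lpl*, *Spp1* and *Cst7* there (1095 and 123 cells), *Irf1* was at 92.8 and 197 CPM. *Stat2* was at 69.0 and 121 CPM in that cluster, and *Irf7* went the other way, from 34.8 to 23.9 CPM.

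Targets of interferon gamma were read as a list of 20 genes with roles in antigen presentation, guanylate-binding and chemokine responses. In microglia-like cells 19 of 19 genes with at least 50 UMIs were higher with anti-CD9 Ab and 13 at least 2-fold, with a median log2 ratio of 1.48 (all genes 0.02). Without integration 16 of 18 were higher (median 1.11). *Gbp5*, a guanylate-binding protein, went from 15.4 to 106 CPM (2.78, 2.50 to 3.07) and *Iigp1*, an immunity-related GTPase, from 79.3 to 519 CPM (2.71). The immunoproteasome genes *Psmb10* (86.9 and 110 CPM, 0.34) and *Psmb8* (261 and 278 CPM, 0.09) differed least. In macrophage-like cells 19 of 19 were higher and 12 at least 2-fold (median 1.24, all genes −0.01), from *Socs1*, a feedback inhibitor (13.3 to 108 CPM, 3.02), and *Gbp5* (19.6 to 157 CPM, 3.01) to *Tap1* (164 and 184 CPM, 0.17) and *Psmb8* (566 and 591 CPM, 0.06). In dendritic cell-like cells 17 of 18 were higher (median 1.15), and in neutrophil-like cells 16 of 17 (median 2.47, all genes −0.15). In T cell-like cells 12 of 18 were higher and 1 at least 2-fold (median 0.10), a small value beside the myeloid classes.

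The type I interferon list had smaller medians than the interferon gamma list in the myeloid and T/NK cell-like classes, though not in T cell-like cells (0.15 against 0.10). In microglia-like cells 20 of 20 genes were higher and 11 at least 2-fold (median 1.02), and without integration 15 of 20 were higher and 2 at least 2-fold (median 0.43). At the high end stood the oligoadenylate synthetase family genes *Oas2* (4.99 to 31.5 CPM, 2.66) and *Oasl1* (11.8 to 36.8 CPM, 1.65), and at the low end *Bst2* (273 and 387 CPM, 0.50) and *Cmpk2* (4.61 and 4.96 CPM, 0.10). In macrophage-like cells 19 of 20 were higher and 8 at least 2-fold (median 0.88). *Oas2* went from 3.91 to 34.5 CPM (3.14) from 5 and 232 UMIs and *Isg15* from 133 to 549 CPM (2.04), while *Ifit3* was at 91.6 and 114 CPM (0.31) and *Bst2* at 675 and 645 CPM (−0.07). In dendritic cell-like cells 16 of 16 were higher (median 0.58), and in neutrophil-like cells 13 of 17 (median 0.37). In T cell-like cells 11 of 18 were higher (median 0.15), and in T/NK cell-like cells 5 of 12 (median −0.21). Over all genes, 52.5% were higher in microglia-like, 49.0% in macrophage-like, 47.5% in dendritic cell-like and 44.9% in neutrophil-like cells. In T cell-like and T/NK cell-like cells the shares were 39.3% and 48.5%. At least 2-fold higher were 2.97% (microglia-like), 8.06% (macrophage-like) and 3.6% (T cell-like). These shares stand beside the counts of both lists. Most genes of these lists respond to both kinds of interferon, so that the lists do not separate them. In the 250-base windows, the ISRE-type motif was present in 9 of 15 genes of the interferon gamma list and 7 of 13 of the type I list for which RefSeq windows were given, and the GAS-type motif in 5 and 3. Over all 27025 genes with such windows, 3.46% held the ISRE-type and 8.13% the GAS-type motif.

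**Figure D5:**
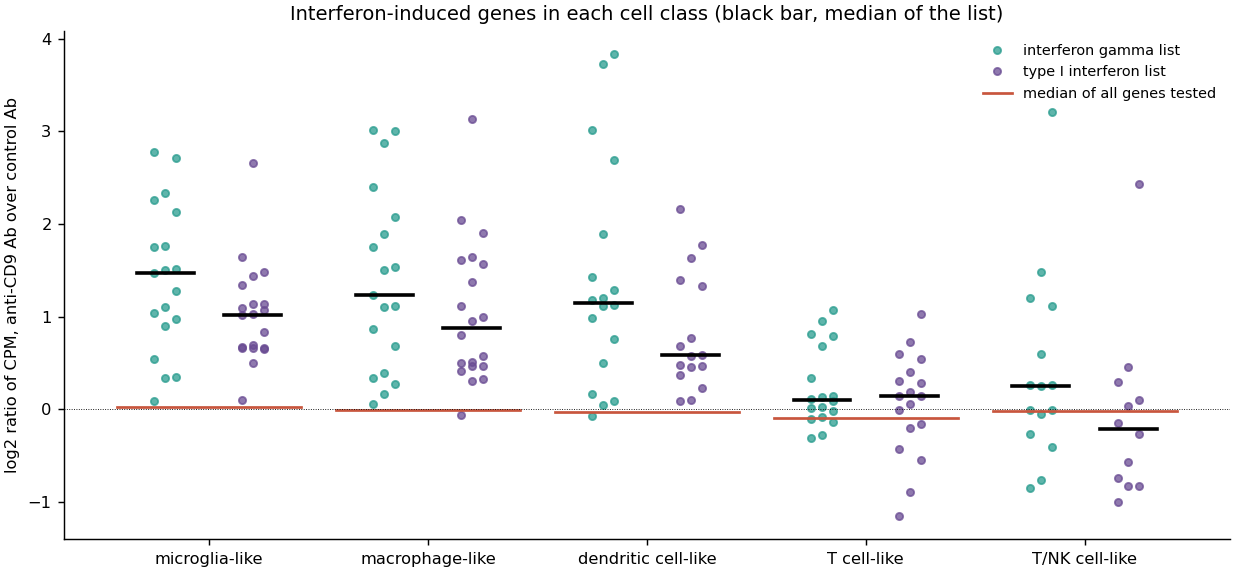
Log2 ratio of CPM, anti-CD9 Ab over control Ab, of each gene of the interferon gamma list and the type I interferon list with at least 50 UMIs, by cell class (points are genes, black bars the median of the list, red lines the median of all genes tested). In microglia-like cells the medians are 1.48 and 1.02, and in T cell-like cells 0.10 and 0.15.

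Other signaling genes of the pathway had smaller medians than both lists in microglia-like and macrophage-like cells. In T cell-like cells their median was not smaller than those of the lists (0.10 and 0.15). Of 16 kinases, phosphatases, STATs, IRFs and inhibitors, 10 were higher in microglia-like cells (median 0.18), 12 of 15 in macrophage-like cells (0.45) and 14 of 16 in T cell-like cells (0.18). Over all genes, 52.5%, 49.0% and 39.3% were higher in these classes, so that the microglia-like count was near that of all genes. The feedback inhibitor *Socs3* was highest by ratio in both myeloid classes, 27.6 to 155 CPM (2.49) in microglia-like cells and 33.7 to 307 CPM (3.19) in macrophage-like cells. *Stat3* went from 182 to 278 CPM (0.62) in microglia-like cells. At the low end stood *Irf5* (138 and 111 CPM, −0.32) and *Irf4* (5.36 and 1.42 CPM, −1.92, from 57 and 4 UMIs) in microglia-like cells, and *Ptpn6* (262 and 186 CPM, −0.50) and *Irf8*, which myeloid cells need for their development (364 and 237 CPM, −0.62), in macrophage-like cells.

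Genes of neutrophils were found in the other classes and were higher with anti-CD9 Ab. The summed level of 12 neutrophil markers went from 542 to 801 CPM in microglia-like, 498 to 1160 CPM in macrophage-like, 66.8 to 866 CPM in dendritic cell-like, 191 to 903 CPM in T cell-like and 101.8 to 1875 CPM in astrocyte-like cells. In microglia-like cells *S100a8* and *S100a9* together went from 82.3 to 247 CPM, so that other markers made up most of the sum in both libraries. At the ratio of *Irf1* to *S100a8* and *S100a9* found in neutrophil-like cells with anti-CD9 Ab, the *S100a8* and *S100a9* UMIs of the other classes would go with 8.40 CPM of *Irf1* in microglia-like, 14.0 CPM in macrophage-like, 18.7 CPM in dendritic cell-like, 19.95 CPM in T cell-like and 29.8 CPM in astrocyte-like cells. The corresponding *Stat2* value in microglia-like cells was 1.15 CPM. Without cells that had an *S100a8* or *S100a9* UMI, *Irf1* was at 91.7 and 210.4 CPM in microglia-like cells (1.199), at 114 and 242 CPM in macrophage-like cells (1.09), and T cell-like cells had 152 and 156 CPM of it (0.04). The part of neutrophil RNA in the dendritic cell-like and astrocyte-like values was not tested.

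The genes whose level was most like that of *Ifng* over 20 groups (each cell class in each library with at least 50 cells) were *Gimap5* (Pearson's r 0.957), *Sytl3* (0.951), *Sh2d2a* (0.95), *Gm36756* (0.945) and *Gimap8* (0.945). For *Irf7* they were *Arpc3* (0.931), *Tapbp* (0.910), *Arpc1b* (0.906), *Tspo* (0.892) and *Arpc5* (0.892). The groups of 1 library share its depth and preparation, and the correlation is given as a description.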

How the data were processed

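Live CD45+ cells of the thalamus were used for 10x Genomics 3′ libraries, 1 per antibody. The deposited matrices hold raw UMI counts per gene and barcode, and the authors had applied no normalization. The labels give Cell Ranger 8.0.0 and GRCm39, whereas the methods of the study give Cell Ranger 6.0.2 and GRCm38. No gene coordinates were taken from the matrices, and promoter windows come from RefSeq on GRCm38.p6.

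The quality limits of the study were applied (200 to 7500 genes, at most 2% mitochondrial counts). Kept cells were integrated by anchors and clustered in Seurat 5.3.0 (R 4.3.3; 2000 variable genes, 30 principal components, resolution 0.8), after 122 genes were left out of the variable genes, among them the 9 members and the interferon lists. Clusters took a name only where at least 50% of a type's markers and no fewer than 3 of them were enriched and no more than 50% of the cells were predicted doublets. A cluster also stayed unnamed where another type had more markers among its leading genes. Doublets were marked and not removed. Counts were summed per class and library and divided by all UMIs of those cells (CPM) in Python 3.11.15 (numpy 2.4.6, scipy 1.17.1, pandas 2.3.3). A list gene entered where both libraries together had at least 50 UMIs, and a gene counted as past the fold at 2-fold. Intervals are exact Poisson (sums), Clopper-Pearson (shares) and conditional binomial (ratios). The ratio interval was checked on simulated independent counts, which is the setting it assumes. That check does not cover UMIs concentrated in a few cells. For shares, each cell was thinned to 1000 UMIs and shallower cells were left out. Free RNA can give UMIs in cells that do not express a gene.

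The members and lists were chosen with earlier results of these data known. The text names all members, the 2 highest and the 2 lowest ratios of each list, the 5 genes most like *Ifng* and *Irf7* by Pearson correlation of log2(CPM + 10), and the leading genes of clusters. One gene of the signaling list that this rule would name is not reported here. The gates were taken over T cell-like and T/NK cell-like cells together. Other settings tried were no integration, 20 principal components, up to 5% mitochondrial counts, no doublets, cells assigned one by one by their marker UMIs, scaling by the median ratio of genes, a mean of the cells' CPM, a minimum of 10 UMIs for list genes and versions without the cells richest in *Ifng* or with *S100a8* or *S100a9*.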

Additional observations from a re-analysis of the deposited data

Results flagged for a closer look

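In 3 receptor genes the ratio between the libraries had opposite directions in different classes, with counting intervals on either side of 0 in the setting reported. *Ifngr1* was higher with anti-CD9 Ab in T/NK cell-like cells (0.81) and lower in dendritic cell-like cells (−0.26), a gap of 1.07. The makeup of the dendritic cell-like class differed between the libraries, and *Ifngr1* was at 439 and 429 CPM (−0.03) within one of its clusters (95 and 182 cells) and at 139 and 174 CPM (0.32) within the other (18 and 161 cells). *Ifngr2* was higher in microglia-like cells (0.21) and lower in T cell-like cells (−0.75), a gap of 0.96. The T cell-like value was −0.076 (−0.40 to 0.24) with cells assigned one by one and −0.29 (−0.76 to 0.16) without integration, and the microglia-like value −0.039 without integration, so that in these settings the intervals no longer lay on either side of 0. *Ifnar2* was higher in macrophage-like cells (0.66) and lower in T cell-like cells (−0.29), a gap of 0.94. With cells assigned one by one the T cell-like value was −0.14 (−0.29 to 0.01). These differences between classes were not tested, since each antibody had 1 library.

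The barcodes outside the quality limits of the study (4778 and 6011 in the control Ab and anti-CD9 Ab library, mostly with over 2% mitochondrial counts) entered no value of the report other than those with up to 5% mitochondrial counts kept, which takes in most of them (11690 and 14455 cells in all). They held 407 and 824 *Ifng* UMIs, 31.1 and 45.4 CPM (0.55, 0.37 to 0.72). *Irf1* stood at 117 and 198 CPM there (0.76, 0.67 to 0.84) and *Irf7* at 48.2 and 63.6 CPM (0.40, 0.26 to 0.54). These values mix all cell types.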

How the results depend on the processing

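No paired analysis was possible because each antibody had 1 library without a replicate number, and no library could be left out. Of 70 values that answer a comparison under another setting, 1 reversed and 16 moved beyond their counting interval. Counts of list genes were taken as moved only beyond 1.5 times, and the type I list stayed below that at 15 of 20 genes without integration, where its median was 0.43 in place of 1.02. Of 232 values of single members, 220 kept their direction. For *Ifngr1* and *Ifngr2* the 232 include the cap on *Ifng* UMIs and the versions without the richest *Ifng* cells. Those settings left their microglia-like and macrophage-like ratios unchanged by construction, so that such values say nothing about stability. The *Ifng* ratio in T cell-like cells was 0.93, and 1.16 with up to 5% mitochondrial counts kept, 0.58 without predicted doublets, 0.14 with at most 5 UMIs counted per cell, 0.57 without the highest cell and 0.067 without the 10 highest. The lymphoid share of *Ifng* UMIs with anti-CD9 Ab was 84.6%, and 92.8% with cells assigned one by one by their marker UMIs, 91.0% without doublets, 92.8% without cells with *S100a8* or *S100a9*, 76.9% with at most 5 UMIs per cell, 81.1% without the highest cell and 74.9% without the 10 highest. *Irf7* in microglia-like cells was −0.56 without integration (−1.36 to 0.13, the value counted as reversed) and 0.77 as a mean of the cells' CPM. In macrophage-like cells it was 0.17 with up to 5% mitochondrial counts kept and 0.15 without doublets. *Irf1* in microglia-like cells was 0.91 without integration and 1.32 as a mean of the cells' CPM. *Ifngr2* in microglia-like cells was −0.039 without integration, which left 1998 and 204 microglia-like cells. The cause of these shifts was not tested. The settings without the richest *Ifng* cells, the cap on UMIs and the one without *S100a8* or *S100a9* were chosen after seeing the data. With control Ab there were 65 neutrophil-like, 113 dendritic cell-like and 204 macrophage-like cells, which limits the ratios of these classes.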
